A study of Mus musculus with 36 samples.

Results

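The nuclear genes named for subunits of the oxidative phosphorylation complexes were followed in regenerating mouse liver at 2 ages. Members were taken by gene symbol: names starting with Ndufa, Ndufb, Ndufc, Ndufs, Ndufv, Uqcr, Atp5 or Cox4 to Cox8, together with Sdha, Sdhb, Sdhc and Sdhd, leaving out the Ndufaf assembly factors and symbols marked as pseudogenes. This gave 83 members of 21955 genes in the count tables: 37 named for complex I, 4 for complex II, 8 for complex III, 17 for complex IV and 17 for complex V. The 13 subunits encoded in the mitochondrial genome were not analysed here. Some symbols are exceptions in meaning. For example, Atp5sl and Atp5s are now known as Dmac2 and Dmac2l and are not ATP synthase subunits proper, and Ndufa4 is now counted with complex IV.

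The study compared young (4 months) and old (18 months) livers of C57BL/6JN mice over 6 time points of regeneration: before, and 48, 72, 96, 120 and 240, for which the labels print no unit. Every age and time point (12 groups) had 3 libraries, described in the series design as biological replicates, for 36 libraries in all; neither a genotype nor an agent beyond age and regeneration is given, and how regeneration was induced is not given in the sources used here. Total RNA came from frozen liver, was depleted of ribosomal RNA and received spike-in RNA from a different mix at each age. Because whole tissue was sequenced, fewer cells of a type and less RNA per cell cannot be told apart.

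As background, the mitochondrial respiratory chain passes electrons from NADH (complex I) and succinate (complex II) through complex III to oxygen at complex IV, and complex V, the ATP synthase, uses the resulting proton gradient to make ATP. Hepatocytes are rich in mitochondria and rely on this pathway for urea synthesis, gluconeogenesis and fatty acid oxidation. The nuclear subunit genes are known to be driven in part by NRF1, by ETS-family factors such as GABPA (also called NRF2), by YY1 and by estrogen-related receptors working with the coactivators PPARGC1A and PPARGC1B.

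Promoters of 4 members are shown because these genes recur in the results below and because each holds a word of one of those factors; the capitals mark the word, in either orientation. Each runs from 250 bases before to 50 bases after a transcription start, 5′ to 3′ on the gene's strand, and comes from RefSeq on GRCm38.p6. Sdhb (chr4:140961021-140961320, plus strand) holds the ETS word CCGGAAG. Sdhd (chr9:50603800-50604099, minus strand) holds the ETS word and the estrogen-related receptor word TCAAGGTCA, both in reverse. Atp5g2 (chr15:102670998-102671297, minus strand) holds the NRF1 word GCGCATGCG, which overlaps its own reverse there. Atp5sl (chr7:25619164-25619463, plus strand) holds the YY1 word AAGATGGCG.
Sdhb: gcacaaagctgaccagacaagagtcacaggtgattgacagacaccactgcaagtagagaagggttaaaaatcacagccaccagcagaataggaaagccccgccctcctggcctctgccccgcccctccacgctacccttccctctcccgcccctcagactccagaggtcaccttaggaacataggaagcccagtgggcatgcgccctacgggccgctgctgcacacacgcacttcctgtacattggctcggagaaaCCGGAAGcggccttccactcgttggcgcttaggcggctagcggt
Sdhd: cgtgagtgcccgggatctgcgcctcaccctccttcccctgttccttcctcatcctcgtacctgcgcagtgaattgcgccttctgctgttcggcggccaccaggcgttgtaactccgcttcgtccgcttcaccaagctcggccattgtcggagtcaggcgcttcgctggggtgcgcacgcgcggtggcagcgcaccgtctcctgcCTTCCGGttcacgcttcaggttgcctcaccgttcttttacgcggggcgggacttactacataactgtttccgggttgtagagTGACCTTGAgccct
Atp5g2: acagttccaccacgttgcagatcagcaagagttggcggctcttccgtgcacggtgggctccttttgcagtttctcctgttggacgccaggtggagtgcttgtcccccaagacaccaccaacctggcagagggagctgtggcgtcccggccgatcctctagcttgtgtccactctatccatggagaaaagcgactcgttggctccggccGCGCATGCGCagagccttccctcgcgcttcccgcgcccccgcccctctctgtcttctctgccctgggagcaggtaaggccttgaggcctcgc
Atp5sl: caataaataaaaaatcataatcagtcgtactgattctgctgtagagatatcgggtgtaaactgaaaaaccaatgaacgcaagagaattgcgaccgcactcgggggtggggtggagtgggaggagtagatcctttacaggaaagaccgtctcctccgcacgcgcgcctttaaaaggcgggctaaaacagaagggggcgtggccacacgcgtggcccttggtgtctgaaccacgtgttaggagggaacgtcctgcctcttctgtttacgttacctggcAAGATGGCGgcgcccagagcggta

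RefSeq promoters were found for 69 of the 83 members, 3 of them through a synonym, giving 75 promoters of 300 bases. Searched on both strands, the YY1 word was in 9 of the 75 (12%, against 1.40% of 32851 promoters of all genes) and the NRF1 word in 8 (10.7% against 1.75%). The ETS word was in 16 (21.3% against 8.86%) and the estrogen-related receptor word in 2 (2.67% against 0.423%). Any of the 4 words was in 29 of the 75 promoters (38.7%, against 11.7% of all). These shares are descriptions of letters in a window and no binding was measured.

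The 36 libraries held 2328230 to 6034450 counts in genes (median 4359440 in young and 4514480 in old), and the members took 0.351% to 0.573% of them (median 0.440%). Levels are in CPM, gene counts scaled to a common library size. The liver label was checked with hepatocyte genes, which summed to between 18496 and 31091 CPM in every library. Y-linked transcripts were present in 12 libraries, exactly 1 in each group. Replicate 1 of the young 120 group stood apart in skeletal or heart muscle genes, which summed to 977 CPM there and to at most 7.51 CPM in any other library. Replicate 1 of the young 48, 96 and 240 groups stood apart in the members' own level. Age differences are given below with all libraries, and those of the members in part again without these 3. Age differences of other genes and gene lists are given with all libraries alone.

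**Figure D1:**
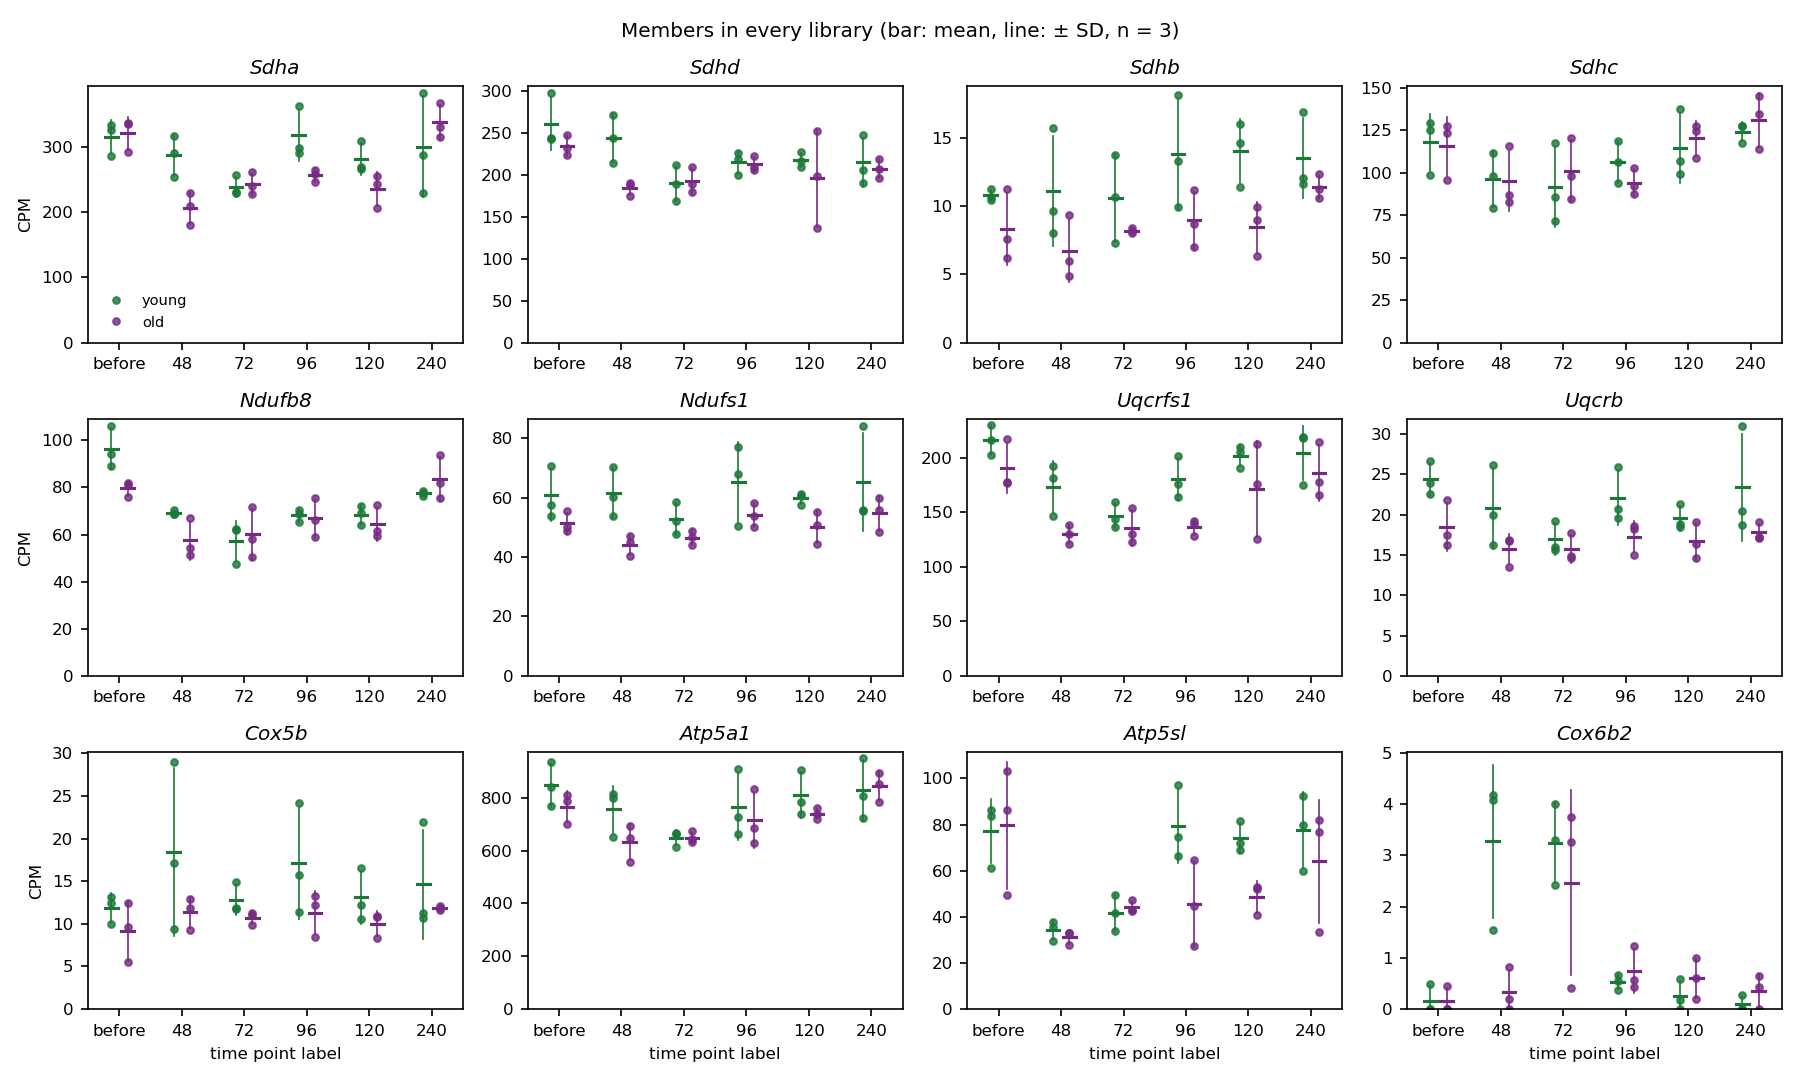
Level (y axis, CPM, starting at 0) of 12 members in each of the 36 libraries by time point label (x axis), young in green and old in purple; points are libraries, bars means and lines ± SD (n = 3). Sdha, Ndufb8, Uqcrfs1 and Atp5sl had lower means at 48 and 72 than before at both ages, Cox6b2 was near 0 before and reached 4.19 CPM in young livers at 48, and Sdhb had a lower mean in old than in young livers at each of the 6 time points, also without the 3 young libraries that stood apart.

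After a filter on low counts, 78 of the 83 members and 13436 genes in all were tested. Levels are given first, as mean CPM over the 36 libraries. Complex V genes were led by Atp5a1 at 750 CPM and Atp5b at 611 CPM, which encode the alpha and beta subunits of the catalytic head, and complex II by Sdha at 278 CPM, the flavoprotein that oxidises succinate. The other complexes were led by Uqcrfs1 (173 CPM, the Rieske iron-sulfur protein of complex III), Cox6a1 (131 CPM, the form of subunit VIa found outside striated muscle) and Ndufv1 (112 CPM, the NADH-binding subunit of complex I). Of the 37 complex I genes, 26 had at least 10 CPM. The lowest tested members were Cox6b2 at 1.02 CPM, Ndufc1 at 1.52 CPM and Ndufb4 at 1.63 CPM.

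Per kilobase of annotated exon, the order changed: Atp5a1 stood at 239 CPM per kb, Cox6a1 at 186, Sdhd at 174, Atp5b at 144 and Uqcrfs1 at 127, against a median of 14.1 over the tested members. The 4 genes of complex II, whose proteins sit together in equal number, spread widely on this scale. Sdhd, a membrane anchor, was at 174 CPM per kb, Sdha at 67.3, Sdhc, the other anchor, at 33.5 and Sdhb, the iron-sulfur subunit, at 4.68. Sdhb (chr4:140961203-140979193 on GRCm38, plus strand) has no annotated near-identical copy; 7 of the 78 tested members do (Atp5h, Atp5k, Atp5l, Atp5o, Ndufb11, Ndufs3 and Uqcrb), and counting may have split their reads. A gene on the opposite strand covers 19.7% of the exonic bases of Uqcrc2, 12.9% of Ndufb11, 12.3% of Ndufb5 and 6.16% of Ndufs1, and reads from it cannot be told apart, since the use of strand in counting is not given in the sources used here. All gene coordinates are on GRCm38.

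The other 5 members did not pass the filter: Cox4i2, Cox6a2, Cox7a1, Cox7b2 and Cox8b, which are isoforms known from lung, striated muscle, brown fat or testis. Cox4i2 had at most 0.726 CPM in any library and Cox7b2 at most 0.235 CPM. Cox6a2, the striated-muscle form of subunit VIa, had 23.0 CPM in replicate 1 of the young 120 group and at most 0.764 CPM in the other 35 libraries. That library is the one whose muscle genes stood apart.

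The first question was whether the members moved from their level before regeneration. A gene is called here when its adjusted p (edgeR quasi-likelihood test, Benjamini-Hochberg over all tested genes) was under 0.05, and fold changes are log2 with their standard error (SE). All comparisons of an age share the same 3 libraries taken before. Overlap between the libraries of compared groups is given as a description, and the share of all genes without overlap is not given here. In young livers 5 of 78 members were called at 48 (6.41%, against 21.9% of all genes): 1 higher and 4 lower, directions in which 12.2% and 9.79% of all genes were called. At 72, 9 were called (11.5% against 17.4%): 2 higher and 7 lower, against 9.21% and 8.21% of all genes. In old livers 8 were called at 48 (10.3% against 24.1%): 1 higher and 7 lower, against 12.1% and 12% of all genes. At 72, 4 were called (5.13% against 12.4%): 1 higher and 3 lower, against 6.54% and 5.81%. In each of these 4 comparisons the share of members called lay under the share of all genes, and most called members were lower. Cox6b2, which is counted among the higher calls in 3 of the 4, passed the filter on low counts only through groups in which it was high. Atp5g2, the higher call in old livers at 48, reached the filter's level in 10 libraries, none of them taken before.

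No member was called at 96, 120 or 240 at either age. In young livers the share of all genes called was 1.4% at 96, 0.581% at 120 and 0.246% at 240, and 7, 8 and 5 members reached an unadjusted p under 0.05, as did 15.3%, 12% and 5.11% of all genes. In old livers it was 6.82% at 96, 3.87% at 120 and 0.156% at 240, with 4, 6 and 2 members at an unadjusted p under 0.05 beside 22.1%, 19.3% and 7.67% of all genes. The smallest adjusted p at 96 was 0.0504 in young livers, for Ndufb8, and 0.0534 in old livers, for Uqcrfs1; DESeq2 called 2 members in young and 1 in old livers there, and 1 at each age at 120.

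The members as a whole had a median fold change of 0.06 at 48 and -0.12 at 72 in young livers, where the median of all genes was -0.01 and 0.01. Leaving out 1 library moved the young 48 median between -0.13 and 0.15, with 26 to 48 members under 0, so its sign rests on single libraries. The young 72 median stayed between -0.19 and -0.07. At 72, 49 of the 78 lay under 0 (62.8%, against 49% of all genes). By complex, the young medians at 72 were -0.52 for complex III, -0.38 for complex II, -0.12 for complexes I and V, and -0.02 for complex IV. Scaling by total counts moved the median of all genes by 0.21 in young and 0.11 in old livers at 72, and the median of the members then stood at 0.08 at both ages, with 3 and 1 members called. In all, 13 members were called in at least 1 of the 10 comparisons (16.7%, against 42.1% of all genes).

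**Figure D2:**
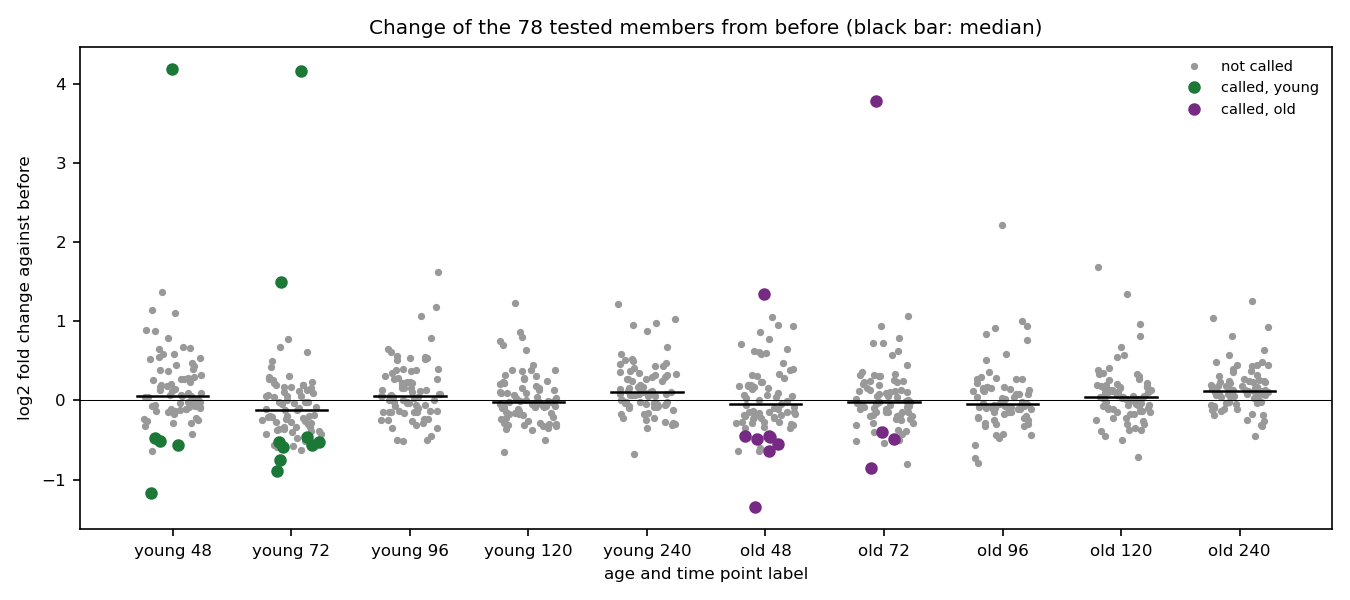
Log2 fold change against before (y axis) of the 78 tested members in each of the 10 comparisons by age and time point label (x axis); grey points were not called, green (young) and purple (old) points had an adjusted p under 0.05, and black bars are medians. Called members appear at 48 and 72 alone, most between -1.35 and -0.40, and the points above 3 are Cox6b2.

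Among complex I genes, Ndufb8, an accessory subunit of the membrane arm (chr19:44548572-44555440, minus strand), was called at both ages and both time points. In young livers it had 94.2, 89.3 and 106 CPM before, 68.8, 70.4 and 68.7 at 48, and 47.4, 61.7 and 62.4 at 72. The ranges at 48 and 72 lay wholly under that before. It fell by 0.48 ± 0.13 at 48 (adjusted p = 0.00947) and by 0.76 ± 0.13 at 72 (adjusted p = 0.000449), and was at 77.5, 78.5 and 76.5 CPM at 240. In old livers it had 75.8, 81.8 and 81.2 CPM before and 66.9, 51.5 and 54.4 at 48, again with no overlap, a fall of 0.47 ± 0.13 (adjusted p = 0.0116). At 72 the old libraries had 50.5, 58.0 and 71.8 CPM (log2 -0.40 ± 0.13, adjusted p = 0.0438).

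Ndufv3, an accessory subunit of the NADH-oxidising module, had 48.7, 44.8 and 47.0 CPM in young livers before and 37.4, 29.5 and 31.3 at 48. All 3 libraries at 48 were lower than all 3 before (log2 -0.51 ± 0.17, adjusted p = 0.0326). In old livers it went from 40.4, 46.0 and 40.6 CPM to 31.1, 26.7 and 32.9, also without overlap (log2 -0.48 ± 0.17, adjusted p = 0.0410). Ndufs8, a core iron-sulfur subunit near the quinone site, fell in old livers at 48, from 58.5, 53.6 and 56.1 CPM to 42.9, 35.7 and 44.8 (log2 -0.45 ± 0.13, adjusted p = 0.0120). Ndufb11 (chrX:20615326-20617619, minus strand), another membrane-arm subunit, had 108, 115 and 134 CPM in young livers before and 88.0, 71.7 and 77.6 at 72. The groups did not overlap (log2 -0.59 ± 0.15, adjusted p = 0.00836). In old livers at 48 it was also called (log2 -0.45 ± 0.15, adjusted p = 0.0302), but replicate 1 at 94.9 CPM lay within the range before, 94.7 to 104 CPM.

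In complex II, Sdha (chr13:74322254-74350280, minus strand) fell at 48 in old livers, from 335, 292 and 334 CPM to 229, 179.7 and 209 (log2 -0.64 ± 0.15, adjusted p = 0.00278). The old libraries at 48 were all under those before. Young livers at 48 had 316, 290.3 and 253 CPM against 334, 286 and 326 before, which overlap (log2 -0.14, adjusted p = 0.553). Sdhd (chr9:50596357-50603812, minus strand), whose promoter is shown above, fell in young livers at 72, from 243, 242 and 298 CPM to 169, 189 and 211 (log2 -0.46 ± 0.15, adjusted p = 0.0335). All 3 libraries at 72 were lower than those before. Sdhb and Sdhc were called in no comparison with before.

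Complex III had the lowest median of the complexes in young livers at 72, with 3 of its 8 genes called lower. Uqcrfs1, the Rieske protein (chr13:30540308-30545362, minus strand), went from 229.7, 203 and 216 CPM before to 144, 137 and 159 at 72 (log2 -0.56 ± 0.15, adjusted p = 0.0117). In old livers it went from 178, 177 and 217 CPM to 138, 130.5 and 121 at 48 (log2 -0.55 ± 0.15, adjusted p = 0.00935) and 129.9, 154 and 123 at 72 (log2 -0.49 ± 0.15, adjusted p = 0.0341). None of these 3 pairs of groups overlapped. Uqcrc2, a core protein (chr7:120635176-120659524, plus strand), had 58.7, 66.2 and 69.0 CPM in young livers before, 53.3, 44.0 and 34.0 at 48 and 46.5, 44.5 and 43.8 at 72. It fell at 48 (log2 -0.56 ± 0.17, adjusted p = 0.0150) and at 72 (log2 -0.52 ± 0.17, adjusted p = 0.0282), without overlap. Uqcrb, a small subunit that binds quinone (chr13:66900617-66905378, minus strand; 3 near-identical pseudogene copies), went from 26.6, 22.6 and 23.97 CPM to 15.7, 19.2 and 16.03 in young livers at 72 (log2 -0.53 ± 0.18, adjusted p = 0.0465).

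Complex IV had a single called member, Cox6b2, the testis form of subunit VIb (chr7:4751792-4753094, minus strand). It had 0, 0.497 and 0 CPM in young livers before, 4.09, 1.55 and 4.19 at 48 and 4.02, 2.43 and 3.31 at 72. The summed counts were 2 before, 48 at 48 and 44 at 72, depth-corrected ratios of 22.1 (95% interval 5.81 to 188) and 21.5 (5.60 to 183). These intervals cover counting error only. Just 7 libraries reached the 2.25 CPM that the filter asked for, 2 in young livers at 48, 3 in young livers at 72 and 2 in old livers at 72, so the gene was tested only because it was high there and its calls are given as a description. All 3 young libraries at 48 and at 72 were above those before. Old livers had 0, 0 and 0.456 CPM before, 0, 0.203 and 0.818 at 48 and 0.410, 3.74 and 3.25 at 72. At 72 the count ratio there was 15.98 (4.10 to 137), with replicate 1 inside the range before, and at 48 it was 2.29 (0.375 to 24.04).

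Among the genes named for complex V, Atp5sl (chr7:25619414-25625551, plus strand), known under its present name Dmac2 as an assembly factor of the complex I membrane arm, was called in all 4 comparisons at 48 and 72. Young livers had 83.8, 86.3 and 61.3 CPM before, 29.4, 35.7 and 37.9 at 48 and 41.5, 34.0 and 49.4 at 72. It fell by 1.17 ± 0.28 at 48 (adjusted p = 0.00286) and by 0.89 ± 0.28 at 72 (adjusted p = 0.0265), without overlap. Old livers had 49.3, 86.2 and 103 CPM before, 27.8, 32.8 and 33.1 at 48 and 42.9, 47.3 and 42.5 at 72, all under the lowest library before. The fold changes were -1.35 ± 0.28 (adjusted p = 0.00111) and -0.85 ± 0.28 (adjusted p = 0.0424).

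A pair of ATP synthase membrane-sector genes was called higher. Atp5j2, which encodes subunit f (chr5:145183698-145192062, minus strand), had 2.91, 1.74 and 1.69 CPM in young livers before and 7.27, 5.10 and 5.85 at 72 (log2 1.5 ± 0.42, adjusted p = 0.0143). Atp5g2, one of the genes for the c-ring protein (chr15:102662864-102672352, minus strand), had 0.704, 1.34 and 0.684 CPM in old livers before and 1.78, 3.24 and 2.05 at 48 (log2 1.34 ± 0.49). Neither pair of groups overlapped, and both genes were low in every library: 10 of 36 libraries reached the filter's 2.25 CPM for Atp5g2, none of them before. Atp5g2 was therefore tested only because it was higher in later libraries, and its call is given as a description. The abundant head subunits were not called: Atp5a1 had a fold change of -0.39 in young livers at 72 (adjusted p = 0.0650), from 935, 839 and 769 CPM to 667, 615 and 661.

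The calls differed in how well they held over the 14 alternatives run for each (other scalings, filters and fits, and leaving out single libraries). Atp5sl in young livers at 48 and Ndufb8 in young livers at 72 stayed called in all 14, and Sdha and Atp5sl in old livers at 48 in 13, while Uqcrb in young livers at 72 stayed called in 2 and Ndufv3 in old livers at 48 in 5. When only the groups compared entered the fit, the old 48 comparison called 0 members in place of 8 and the old 72 comparison 1 in place of 4. The young 48 count fell to 2 without replicate 3 of the young libraries before. The young 72 count was 4 without that library and 3 without replicate 2 at 72. The old 48 count was 4 without replicate 3 before or replicate 2 at 48, and 5 without replicate 1 before; the old 72 count was 0 without replicate 2 before, 1 without replicate 3 before or replicate 1 or 3 at 72, and 2 without replicate 2 at 72.

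The second question was whether the members differed between old and young livers. Averaged over the 6 time points, 7 of 78 members were lower in old livers and 0 were higher (8.97%, against 5.98% of all genes, 2.59% lower and 3.39% higher). The shift was small and broad: 72 of 78 members had a fold change under 0 (92.3%, against 49.4% of all genes), with a median of -0.17 against 0.00 for all genes and quartiles of -0.27 and -0.11. At an unadjusted p under 0.05 there were 35 members, all lower (44.9%, against 9.76% of all genes that were lower at that p). The 6 members above 0 were Ndufb4 (0.24), Ndufab1 (0.09), Ndufa7 (0.08), Ndufa8 (0.05), Ndufa5 (0.04) and Sdhc (0.01), none called.

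**Figure D3:**
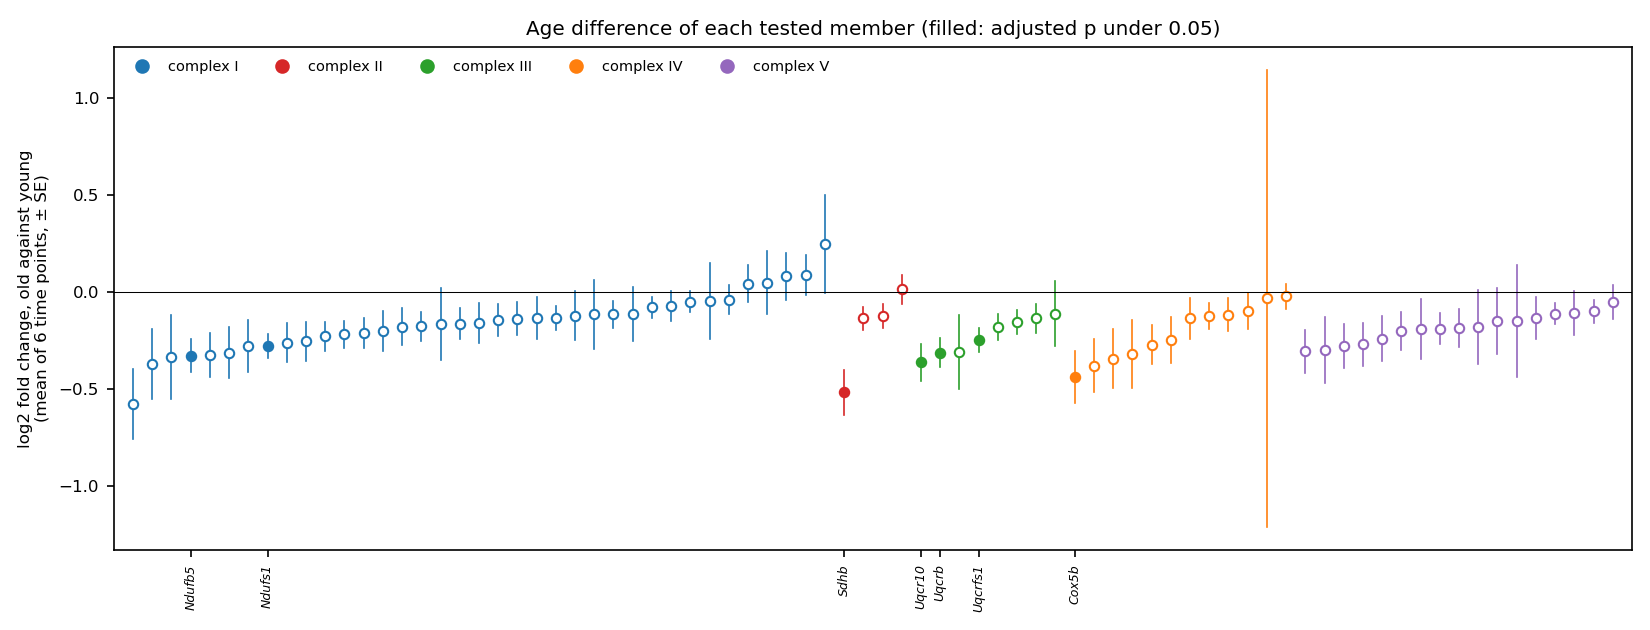
Log2 fold change of old against young livers, averaged over 6 time points (y axis, lines ± SE), for each of the 78 tested members (x axis, ordered by complex and fold change, with the called members named), coloured by complex and filled where the adjusted p was under 0.05. The 7 filled points run from -0.52 (Sdhb) to -0.25 (Uqcrfs1), and 72 of the 78 points lie under 0 with all libraries, 60 without the 3 young libraries that stood apart.

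All 17 complex V genes, all 12 tested complex IV genes and all 8 complex III genes had a fold change under 0, as did 32 of 37 in complex I and 3 of 4 in complex II. The called members were Ndufs1 and Ndufb5 in complex I, Sdhb in complex II, Uqcrb, Uqcrfs1 and Uqcr10 in complex III, and Cox5b in complex IV. No complex V gene was called. Sdhb, the iron-sulfur subunit that hands electrons from Sdha to quinone, had 7.29 CPM in its lowest, 11.5 in its median and 18.1 in its highest young library, against 4.91, 8.55 and 12.3 in old livers. The ranges overlapped and all 3 of these values were lower in old livers; the fold change was -0.52 ± 0.11 (adjusted p = 0.00594).

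Taken time point by time point, Sdhb stood at -0.37 (before), -0.74 (48), -0.37 (72), -0.65 (96), -0.73 (120) and -0.24 (240) on the log2 scale. Ndufs1, the largest subunit of complex I, which carries iron-sulfur clusters of the NADH-oxidising module (chr1:63143596-63176833, minus strand), ran from 47.9 over a median of 58.1 to 84.2 CPM in young and from 40.5 over 49.5 to 59.9 CPM in old livers (log2 -0.28 ± 0.06, adjusted p = 0.00722). Ndufb5, a membrane-arm subunit (chr3:32736990-32751566, plus strand), had a median of 14.7 CPM in young (8.02 to 20.6) and 11 in old livers (7.27 to 16.6; log2 -0.33 ± 0.09, adjusted p = 0.0178). With all libraries kept, both genes were lower in old livers at all 6 time points, and their ranges over 18 libraries an age overlapped.

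Of complex III, Uqcrfs1 had a median of 191 CPM in young (137 to 229.7) and 148 in old livers (121 to 217; log2 -0.25 ± 0.06, adjusted p = 0.0141). Uqcrb had a median of 20.2 CPM in young (15.7 to 31.0) and 17.02 in old livers (13.6 to 21.8; log2 -0.31 ± 0.08, adjusted p = 0.0109). Uqcr10, a small subunit (chr11:4701973-4704342, minus strand), had a median of 14.4 CPM in young and 11.3 in old livers (log2 -0.36 ± 0.10, adjusted p = 0.0210). With all libraries kept, all 3 genes were lower in old livers at each of the 6 time points, with overlapping ranges. Cox5b, the zinc-binding subunit of complex IV (chr1:36691449-36693681, plus strand), ran from 9.36 over 12.4 to 28.9 CPM in young and from 5.48 over 11.2 to 13.3 CPM in old livers (log2 -0.44 ± 0.13, adjusted p = 0.0442). Its call held in 16 of 46 alternatives, that of Sdhb in 44.

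Abundant and catalytic members mostly lay on the same side without a call, as did Ndufa4, a low member with a mean of 4.78 CPM. Ndufa4 had a fold change of -0.58 (adjusted p = 0.0513). Ndufs7, a core iron-sulfur subunit, had -0.33 (adjusted p = 0.0837), Atp5b -0.19 (adjusted p = 0.159) and Atp5a1 -0.10 (adjusted p = 0.358). Atp5a1 ran from 615 over 776 to 951 CPM in young and from 558 over 710.1 to 893 CPM in old livers. Sdha had -0.14 (adjusted p = 0.186), and Sdhd -0.13.

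At single time points the old minus young contrast called 0 of 78 members before, where 0.0595% of all genes were called, 0 at 72 (0%), 0 at 96 (0.171%), 0 at 120 (0%) and 0 at 240 (0.0149%). Fold changes under 0 numbered 66 of 78 before regeneration (84.6% of members, against 48.6% of all genes), 69 at the label 48 (48.5% of all genes) and 53 at 72 (48.9%). They numbered 68 at 96 (51.5%), 54 at 120 (50.6%) and 69 at 240 (49.2%). These counts depend on single young libraries: without replicate 1 of the young group of that time point they were 54 before, 49 at 48, 39 at 72, 47 at 96, 41 at 120 and 35 at 240. At 240 the median fold change then turned to 0.02. The counts without replicate 1 were the lowest found on leaving out 1 library of either age. The highest were 70 (before), 72 (48), 61 (72), 73 (96), 62 (120) and 69 (240). The fold change was under 0 in old livers at all 6 time points for 28 members (35.9%, against 4.52% of all genes), among them Atp5b, Atp5o, Cox4i1, Cox5a, Ndufa9, Ndufs3, Ndufs4 and Ndufv2, and 0 were higher at all 6 (5.17% of all genes). On the scale of mean log2(CPM + 1) over the 78 members, the old minus young difference was -0.16 before and -0.24 at 48, and it ranged from -0.21 (96) to -0.06 (72) later.

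At 48, 3 members were called, all lower in old livers (3.85%, against 11.2% of all genes): Sdha, Ndufs1 and Cox6b2, the last a description because of how it passed the filter. Sdha had 316, 290.3 and 253 CPM in young and 229, 179.7 and 209 in old livers (log2 -0.48 ± 0.15, adjusted p = 0.0337). Ndufs1 had 70.4, 60.3 and 54.0 CPM in young and 47.1, 45.0 and 40.5 in old livers (log2 -0.48 ± 0.16, adjusted p = 0.0424). Cox6b2 had 48 counts in young and 5 in old livers, a ratio of 9.79 (95% interval 3.92 to 31.5). The ages did not overlap in these 3, which describes genes already called and is not further evidence. Without replicate 1 of the young 48 group 0 members were called, without replicate 2 of either age at 48 there was 1, without replicate 3 of the young 48 group 6, and without replicate 1 of the old 48 group 8.

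The difference between the ages in their change over time was tested for all 5 later time points together, and no member was called (2.76% of all genes were). The members with an unadjusted p under 0.05 (2 of 78, against 14.1% of all genes) were Cox6b2 (adjusted p = 0.237 in the edgeR fit) and Sdha (adjusted p = 0.299). Ndufs8 and Atp5sl followed with adjusted p of 0.447 and 0.609. The fall of Sdha and Ndufs8 at 48 in old livers and not in young livers was therefore not shown to differ between the ages.

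**Figure D4:**
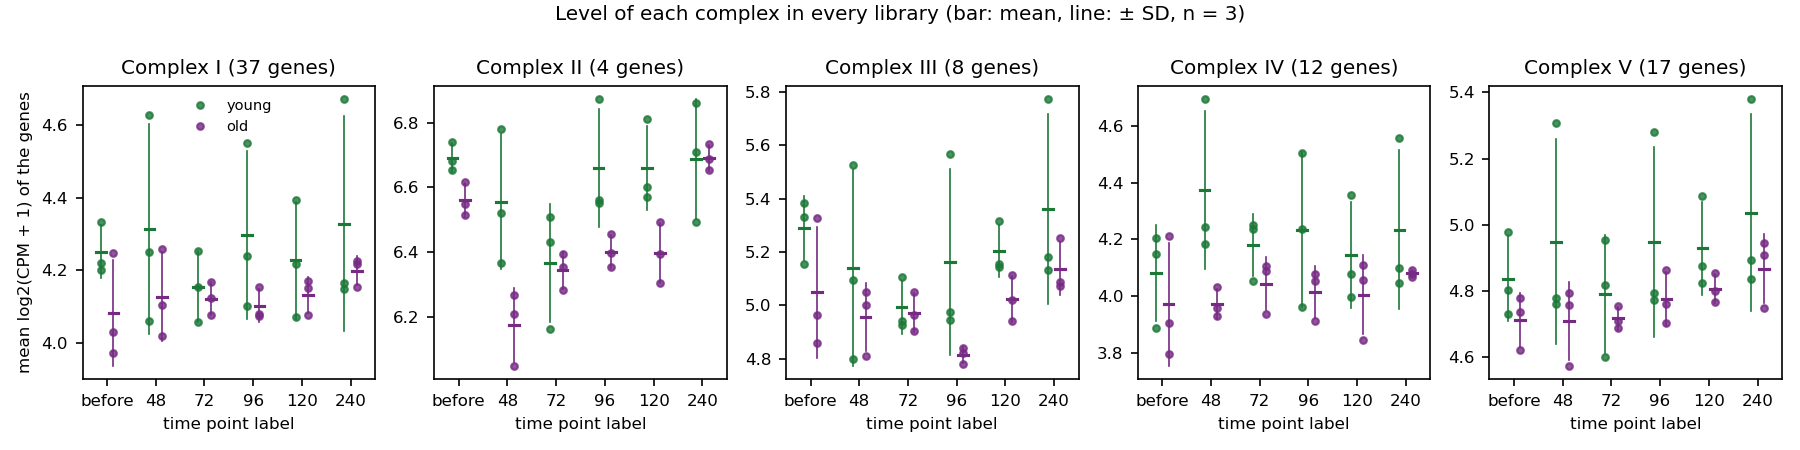
Mean log2(CPM + 1) of the tested genes of each complex (y axes, which do not start at 0) in every library by time point label (x axis), young in green and old in purple; bars are means and lines ± SD (n = 3). Old means lie under young means in complexes I, III, IV and V at all 6 time points and in complex II at 5 of 6 with all libraries kept, and single young libraries at 48, 96 and 240 lie far above the others of their group.

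The age difference is described next with single libraries left out, since the members rose and fell together from library to library. A set of 3 young libraries stood highest against the mean of their own group: replicate 1 at 240 by 0.34 on the log2(CPM + 1) scale, replicate 1 at 48 by 0.33 and replicate 1 at 96 by 0.29. In them 69, 67 and 71 of the 78 members were above the group mean. Replicate 3 of the young 48 group was lowest, at -0.24, with 9 members above. Old libraries stayed between -0.12 and 0.15, and the pooled SD of these deviations was 0.216 in young and 0.0774 in old livers. Replicate 1 was the highest of its group in 6 of 6 young and 3 of 6 old groups.

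Those 3 young libraries were picked as the highest in the members' own level, and the lowest, replicate 3 of the young 48 group, was kept. Leaving the 3 out lowers the young level and so shrinks the age difference by construction. Without those 3, a comparison chosen after seeing the data, 2 members remained called lower in old livers, Sdhb at -0.39 and Ndufs1 at -0.20, both among the 7. The number under 0 was then 60 of 78, with a median of -0.08. By time point, 49 members were under 0 at 48 (against 48.5% of all genes), 47 at 96 (50.7%) and 35 at 240 (47.6%), and 0 were called at any of the 6. The difference of the members' mean log2(CPM + 1) became -0.08 at 48, -0.07 at 96 and 0.02 at 240. Members under 0 at all 6 time points numbered 7 (against 3.94% of all genes) in place of 28, and 6 of the 7 were among the 28: Ndufb10, Ndufc2, Ndufs1, Sdhb, Uqcrb and Uqcrfs1. For Sdhb the fold change was then -0.38 at 48, -0.40 at 96 and -0.05 at 240, and for Cox5b, Ndufb5 and Uqcr10 it was under 0 at 5 of 6. With all 3 kept, the direction of the average held among libraries without Y-linked transcripts (69 under 0, median -0.17, 3 called) and among the 12 with them (66 under 0, median -0.12, 0 called). It also held without the 48 time point (70 under 0, 5 called). Leaving out any 1 library gave 6 to 11 called members, the 11 without replicate 3 of the young 240 group, and 70 to 73 under 0. For these averaged counts in reduced sets of libraries, the shares of all genes are not given here. With all libraries they were 49.4% under 0 and 2.59% called lower.

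**Figure D5:**
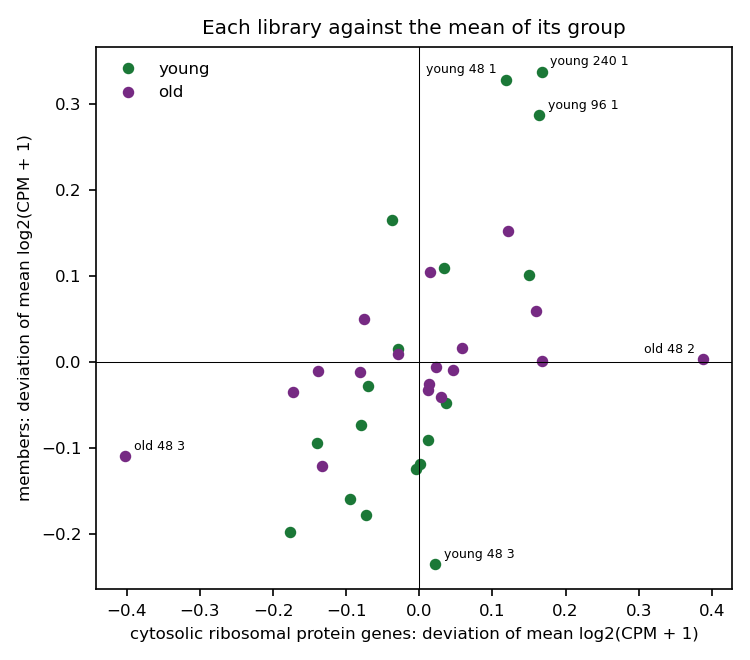
Deviation of each of the 36 libraries from its group mean, for the mean log2(CPM + 1) of the 78 members (y axis) against that of the cytosolic ribosomal protein genes (x axis), young in green and old in purple. The young replicate 1 libraries at 3 time points (48, 96 and 240) lie highest, at 0.29 to 0.34, and r over the 36 libraries was 0.510.

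As a description over 36 libraries, which share depth and library with every gene compared, deviations of one complex followed those of another with r of 0.712 to 0.919. Single members followed the mean of the rest with a median r of 0.613, and 50 of 78 reached at least 0.5. Atp5g3 (0.881), another c-ring gene, Atp5b (0.878), Cox5b (0.857) and Uqcrh (0.847) were among those that followed it most closely. Some called members had a low r: Atp5sl had r of -0.42, Atp5g2 -0.33, Ndufb8 -0.05 and Sdhd 0.01. The same member deviations had r of 0.627 with mitochondrial ribosomal protein genes, 0.510 with cytosolic ribosomal protein genes, 0.313 with hepatocyte genes and -0.465 with Malat1, a nuclear-retained RNA. The part of these in the age difference was not tested.

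Beside the age difference of the members, hepatocyte marker genes had a mean log2(CPM + 1) lower by 0.28 in old livers, at 6 of 6 time points, with group means of their summed level from 20136 to 28995 CPM, 7 of 9 genes under 0 and 1 called lower, Cyp2e1, a cytochrome P450 (log2 -0.63 ± 0.14, adjusted p = 0.00590). Cytosolic ribosomal protein genes differed by 0.04 with 0 of 78 called, and mitochondrial ribosomal protein genes by -0.07 with 2 of 75 called lower and 61 under 0. Whether hepatocyte share or RNA had a part in the members' shift was not tested.

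Upstream of the respiratory chain, the pyruvate dehydrogenase and citric acid cycle genes were read against the shares of all genes called: 9.79% lower and 12.2% higher in young livers at 48, 8.21% and 9.21% at 72, and in old livers 12% and 12.1% at 48 and 5.81% and 6.54% at 72. Of 17 tested, 5 were lower and 0 higher in young livers at 48, and 7 lower and 0 higher at 72. In old livers 7 were lower and 2 higher at 48, and 5 lower and 0 higher at 72. Pdha1, the alpha subunit of pyruvate dehydrogenase, fell by 1.17 ± 0.17 in young livers at 72 (adjusted p = 0.00011), and Pdhb, its partner, by 1.01 ± 0.16 (adjusted p = 0.000166). In old livers at 48, Dlat, the acetyltransferase of the same complex, fell by 1.25 ± 0.15 (adjusted p = 2.59e-06) and Fh1, fumarase, by 1.43 ± 0.47 (adjusted p = 0.0279). Averaged over time, 4 of the 17 were lower in old livers (2.59% of all genes were), among them Suclg1 (-0.32 ± 0.08, adjusted p = 0.0141) and Idh3b (-0.25 ± 0.05, adjusted p = 0.00374).

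Against the same shares of all genes, of 25 tested regulators of mitochondrial biogenesis 7 were lower and 1 higher in young livers at 48, 4 lower and 0 higher at 72, and in old livers 4 lower and 2 higher at 48 and 5 lower and 1 higher at 72. Ppargc1b, a coactivator of estrogen-related receptors and NRF1, fell by 2.51 ± 0.30 in young livers at 48 (adjusted p = 1.39e-06) and by 1.11 ± 0.28 at 72 (adjusted p = 0.00623). In old livers it fell by 1.69 ± 0.29 at 48 (adjusted p = 0.000167) and by 1.15 ± 0.28 at 72 (adjusted p = 0.00718). It was also lower in old than in young livers on average (-0.49 ± 0.12, adjusted p = 0.00927), while Nrip1, a corepressor of mitochondrial genes, was higher (0.40 ± 0.08, adjusted p = 0.00139). Gabpa, one of the ETS-family factors, fell in young livers at 72 (-0.50 ± 0.13, adjusted p = 0.00849). In old livers Gabpa fell at 48 (-0.46 ± 0.13, adjusted p = 0.0104) and at 72 (-0.57 ± 0.13, adjusted p = 0.00448). Ppargc1a, Nrf1 and Tfam, the mitochondrial DNA packaging factor, were not called in these comparisons.

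Of 16 tested carriers and related subunits outside the symbol rule, Coq10b, a coenzyme Q binding protein, fell in young livers at 48 (-1.73 ± 0.37, adjusted p = 0.00108) and in old livers at 48 (-1.86 ± 0.38, adjusted p = 0.00100). It was lower in old livers on average (-0.67 ± 0.15, adjusted p = 0.00711), as was Cyc1, the cytochrome c1 of complex III (-0.19 ± 0.06, adjusted p = 0.0413). Cycs, cytochrome c itself, rose in old livers at 48 (0.69 ± 0.25, adjusted p = 0.0447). Of 50 assembly factors, 6 were higher and 2 lower in young livers at 48, and 3 higher and 2 lower in old, beside 12.2% and 9.79% of all genes in young and 12.1% and 12% in old livers. That is near or under the share of all genes. Averaged over time 2 of 50 were lower in old livers (2.59% of all genes were), Surf1, which acts in complex IV assembly (-0.30 ± 0.06, adjusted p = 0.00414), and Ndufaf1, which acts in complex I assembly (-0.28 ± 0.07, adjusted p = 0.0221).

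For scale, all 5 proliferation genes tested rose in young livers at 48 and 72 and in old livers at 72, and 2 of 5 in old livers at 48. At 48, 4 of the 5 were lower in old than in young livers. In the same old livers at 48, 41 of 78 cytosolic ribosomal protein genes were higher than before and 1 was lower. Of all genes 12.1% were higher and 12% lower. The ribosomal median was 0.67, while the members there had a median of -0.05 (-0.11 to 0.10 when 1 library was left out). The old 48 libraries were uneven for the ribosomal genes. Their mean log2(CPM + 1) deviated from the group mean by 0.388 in replicate 2 and -0.402 in replicate 3, the extremes of the 36 libraries. A range for the ribosomal median with 1 library left out is not given here, so this contrast is a description.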

How the data were processed

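RNA-seq of whole liver was deposited as 1 table of gene counts per library. The authors deposited whole-number counts without normalization; spike-in RNA was not used here. The submitters' processing notes name bcl2fastq 2.20.0, Trimmomatic 0.39, STAR 2.7.5b, featureCounts and the builds GRCm38 and mm10; the annotation and the use of strand are not given in the sources used here, so reads from overlapping antisense genes cannot be told apart. Counts were fitted with edgeR 4.0.16 in R 4.3.3: filterByExpr on the 12 groups, TMM scaling, glmQLFit (robust) with 1 mean per group over all 36 libraries, and Benjamini-Hochberg adjustment within each comparison. The scripts were run on simulated counts with known changes in old livers at 48. They called 47.4% of the 2-fold changes and 4% of the 1.5-fold changes, and 3.85% of the calls were false. Only 197 of 13200 tested genes were changed in the simulation, while 24.1% of all genes were called in the real old 48 comparison. The adjusted p is stricter where fewer genes change, so these shares do not say what share of changes the real comparisons would call. A member that was not called may still have changed by such amounts. Scores are means of log2(CPM + 1). P-values rest on the spread between libraries within groups, estimated over all 12 groups in 1 fit with 24 residual degrees of freedom. They do not rest on the libraries of the compared groups alone. Coordinates are GENCODE M21 on GRCm38, and near-identical copies were matches of at least 95% identity over at least 50% of a transcript (BLAST 2.17.0).

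Members and gene lists were chosen with earlier results of these data known. Members named with values are, for each comparison, up to 3 called with the largest rise and 3 with the largest fall, 4 by the smallest p for the difference of changes, the 3 highest and 3 lowest by CPM, those with the largest or smallest correlation, and a fixed list of catalytic and isoform genes; other called members (Ndufb8 at young 48, Uqcrb, Uqcrc2, Ndufs8 and the like) are named to account for all calls. Of other lists, named regulators and up to 2 called genes per comparison are given. Alternatives were other scalings, DESeq2 1.42.0, no filter, replicate blocks, fewer libraries and other pseudocounts. A result that the rule would name is not reported here.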

Additional observations from a re-analysis of the deposited data

Results flagged for a closer look

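A set of 3 members with striated-muscle or brown-fat isoforms, none of which passed the filter on low counts, were above their level in every library taken before in a single library, replicate 1 of the young 120 group. Cox6a2 had 23.0 CPM there, from 118 counts, against at most 0.484 CPM before and 0.764 CPM in any other library. Cox8b had 1.56 CPM, from 8 counts, against at most 0.235 CPM before and 0.259 CPM elsewhere. Cox7a1 had 0.779 CPM, from 4 counts, above the 0.228 CPM before but under the 0.911 CPM of another library. In that library skeletal and heart muscle genes summed to 977 CPM, and the next highest library had 7.51 CPM.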

How the results depend on the processing

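Depth limits the low members, since those near 1 CPM rest on a few counts a library. No called member changed sign under any alternative run. Counts of called members that moved by more than 1.5 times are given here, and the cause was not tested except where fewer genes or samples entered. With total-count scaling 3 members were called in young livers at 72, 1 in old livers at 72 and 6 between the ages at 48. Without the filter 4 were called in old livers at 48, 1 in old livers at 72 and 1 between the ages at 48. Median-of-ratios scaling called 1 member in young livers at 96. DESeq2 called 2 in young livers at 96, 1 in young livers at 120, 1 in old livers at 96 and at 120, and 6 between the ages at 48. With only the groups compared in the fit, 1 was called in young livers at 96, 0 in old livers at 48, 1 in old livers at 72 and 0 between the ages at 48. A term for Y-linked transcripts called 1 in young and 1 in old livers at 96. Libraries without Y-linked transcripts gave 1 in young livers at 48, 5 at 72, 5 and 2 in old livers at 48 and 72, 8 between the ages at 48 and 3 on average over time. Libraries with them gave 0 on average. With the 3 young libraries of highest member level left out, 2 were called on average and 0 between the ages at 48, a setting chosen after seeing the data.

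Leaving out 1 library at a time gave 2 to 7 called members in young livers at 48, 3 to 8 at 72, 4 to 8 in old livers at 48, 0 to 4 at 72, 0 to 1 at 96 and at 120, 0 to 8 between the ages at 48 and 6 to 11 on average over time. Libraries of the same replicate number did not all correlate: between the ages 7 of 18 pairs were over 0.1 (mean 0.062), and between before and later 8 of 15 were in old (mean 0.147) and 8 of 15 in young livers (mean 0.058). Pairs of different number had means of -0.027 between the ages, -0.066 in old and -0.023 in young livers. The numbers were not used as pairs because the labels do not say that equal numbers are the same animal. Number 1 held the highest member level in 6 of 6 young groups, and whether it marks a shared batch was not tested. A replicate block within each age called 8 members in young livers at 48, 14 at 72, 13 in old livers at 48 and 2 at 96, and a block shared by the ages called 10 on average over time.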

Other observations

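Among the 78 tested members, 7 had a fitted fold change under 0 in all 10 comparisons with before: Atp5d, Cox6a1, Ndufb11, Sdhd, Uqcrb, Uqcrfs1 and Uqcrq. Among all genes 11.8% did so, and comparisons of an age share their libraries before. Spread within groups fell with level over the 78 tested members (Spearman's rho -0.693 across genes, which are not independent replicates).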
